A study of Mus musculus with 14 samples.

Results

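The genes described here encode the 9 core subunits of cohesin measured in c-KIT-positive differentiating spermatogonia of mouse testis: Smc1b, Smc1a, Smc3, Rec8, Rad21l, Rad21, Stag3, Stag1 and Stag2. They were chosen by name as the SMC, kleisin and STAG genes of the ring, and all 9 were found among the 24984 gene symbols of each of the 2 count tables. Cohesin is a ring that holds sister chromatids together. Each ring is built from an SMC1 protein, SMC3, a kleisin that closes the ring and a STAG protein bound to the kleisin. Germ cells entering meiosis add paralogs of the mitotic subunits: SMC1B beside SMC1A, REC8 and RAD21L beside RAD21, and STAG3 beside STAG1 and STAG2. SMC3 has no meiotic form and serves in both kinds of ring. c-KIT-positive spermatogonia still divide by mitosis and are the last cells before meiosis, so both sets can be read in them.

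Libraries from 14 C57BL/6J animals formed 4 groups, none with an age in the sources used here. In the deletion experiment, 2 animals of genotype Rosa26-CreERT2; Cbx2 Flox/Δ had tamoxifen by injection (200 µL at 20 mg/mL, 3 times), and 2 controls of genotype Rosa26-CreERT2; Cbx2 Flox/+ had corn oil, so that both groups carried the recombinase and a floxed allele, and genotype and injection differed together. Rosa26 drives the recombinase in most cell types, so recombination was not limited to the germ line. The other experiment set 5 homozygotes for the 23KRA allele of Cbx2, which changes lysines and arginines in the CaPS domain to alanine, against 5 Cbx2 +/+ animals, all untreated. CBX2 is a chromatin-binding subunit of Polycomb repressive complex 1. The comparisons ask whether cohesin transcripts differed with either alteration of Cbx2.

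Total counts were 28169990 to 31166500 per library in the deletion experiment and 14562564 to 19814511 in the 23KRA experiment. Cbx2 itself, counted over the whole gene with the floxed interval not given in the sources used here, stood at 78.5 and 86.5 CPM after deletion against 93.9 and 97.7 CPM without it, and at 53.2 to 83.6 CPM in wild type and 48.8 to 89.7 CPM in 23KRA homozygotes. How far Cbx2 was lost in the sorted cells of deleted animals cannot be read from these whole-gene counts. CPM are counts relative to the TMM-scaled library total, as everywhere below. Kit was at 203 to 271 CPM over the deletion libraries and 232 to 303 CPM over the 23KRA libraries, and all 8 markers listed for differentiating spermatogonia had counts in every library. Their summed level was 5320 to 5955 CPM in controls, 5949 to 6365 CPM in deleted animals, 2725 to 3049 CPM in wild type and 2708 to 3047 CPM in 23KRA homozygotes. In the deletion experiment Dazl had the highest mean of these 8 genes (3126 CPM without deletion, 3468 CPM with it). Ddx4 came next, at 736 and 805 CPM, while Kit was at 231 and 242 CPM. The sum is thus weighted toward Dazl, and by itself it does not show how pure the sorted cells were. Transcripts typical of other cells were present too. For 9 spermatid markers the sum was 3208 to 3511 CPM in controls, 2768 to 3193 CPM in deleted animals, 304 to 1141 CPM in wild type and 251 to 1149 CPM in homozygotes. For 10 markers of pachytene and later spermatocytes it was 1514 to 1555, 1324 to 1468, 561 to 842 and 573 to 881 CPM in the same order of groups, and none of these 19 genes was at 0 in any library. Early meiotic prophase markers (9 genes) summed to 4561 to 5059 CPM over the deletion libraries and 2422 to 3447 CPM over the 23KRA libraries, and markers of undifferentiated spermatogonia (7 genes) to 96.2 to 110.4 and 109.5 to 146 CPM. The somatic lists (Sertoli, Leydig, myoid, immune and endothelial) each stayed at or below 122.5 CPM in every library. The Leydig sum was 17.6 to 22.2 CPM in controls and 12.6 to 14.1 CPM in deleted animals. Of the somatic markers Amh was at 0 in at least 1 deletion library and 16 were at 0 in at least 1 23KRA library, Insl3, Acta2, Ptprc and Pecam1 among them.

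The measurement of a meiotic subunit against its mitotic paralog rests on reads that tell them apart, so the stretches where the paralogs are most alike are shown first. In GENCODE coding sequences on GRCm38, read 5′ to 3′ with positions counted from the A of the start codon, the longest run shared by Smc1b (positions 874 to 896) and Smc1a (874 to 896) was 23 bases, given here in capitals with 15 bases of flank on each side:
Smc1b: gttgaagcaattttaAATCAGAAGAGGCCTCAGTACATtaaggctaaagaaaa
Smc1a: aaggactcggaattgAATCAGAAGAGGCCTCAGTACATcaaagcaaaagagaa
The mitotic pair Stag1 (1147 to 1169) and Stag2 (1138 to 1160) also shared at most 23 bases in a row:
Stag1: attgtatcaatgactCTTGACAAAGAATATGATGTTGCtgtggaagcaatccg
Stag2: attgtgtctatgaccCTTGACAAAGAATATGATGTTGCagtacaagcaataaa
The kleisins Rad21l (868 to 884) and Rad21 (1586 to 1602) shared at most 17 bases, at different positions in their coding sequences:
Rad21l: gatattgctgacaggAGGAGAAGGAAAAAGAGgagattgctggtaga
Rad21: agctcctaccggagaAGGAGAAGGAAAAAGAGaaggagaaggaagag
Stag3 (1540 to 1553) and Stag1 (1456 to 1469) shared at most 14 bases:
Stag3: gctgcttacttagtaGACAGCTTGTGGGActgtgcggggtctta
Stag1: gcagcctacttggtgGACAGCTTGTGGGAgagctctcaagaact
Rec8 and Rad21 shared at most 12 bases, and Stag3 and Stag2 at most 14.

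No window of 50 bases in the transcripts of any of the 9 genes occurred in another of them. Smc3 shared 1.37% of its windows with 3 other annotated genes, and Stag3, Stag1 and Stag2 shared at most 0.048% with any gene outside the family. The only exonic overlap with another annotated gene was 28 bases of Stag2 with Gm37564 on the opposite strand, a model that is not in the count tables. The sources used here give neither the read length nor how reads with several matches were counted.

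Smc1b, a meiotic subunit, had the highest transcript level of the family per length in both experiments, and Rec8, another, was among the lowest. To compare genes, CPM were divided by the length of all annotated exons in kilobases. In the 2 control libraries of the deletion experiment Smc1b (chromosome 15, 85064689 to 85131964, minus strand of GRCm38, as for all positions here) led with 202 ± 18.2 CPM per kilobase (SD, n = 2). Stag3 (chromosome 5, 138280240 to 138312393, plus strand) followed with 112 ± 2.75, and Smc3 (chromosome 19, 53600398 to 53645833, plus strand) with 94.3 ± 5.49 CPM per kilobase. The ranges of these 3 genes did not overlap, nor did that of Rad21 (chromosome 15, 51962240 to 51991747, minus strand), at 52.1 ± 1.04, with Stag1 (chromosome 9, 100597798 to 100959375, plus strand), at 25.9 ± 2.499 CPM per kilobase. Rec8, Smc1a, Rad21l and Stag2 formed the low end at 10.4 to 11.4 CPM per kilobase, and each neighbour in that order overlapped the next in its range.

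**Figure D1:**
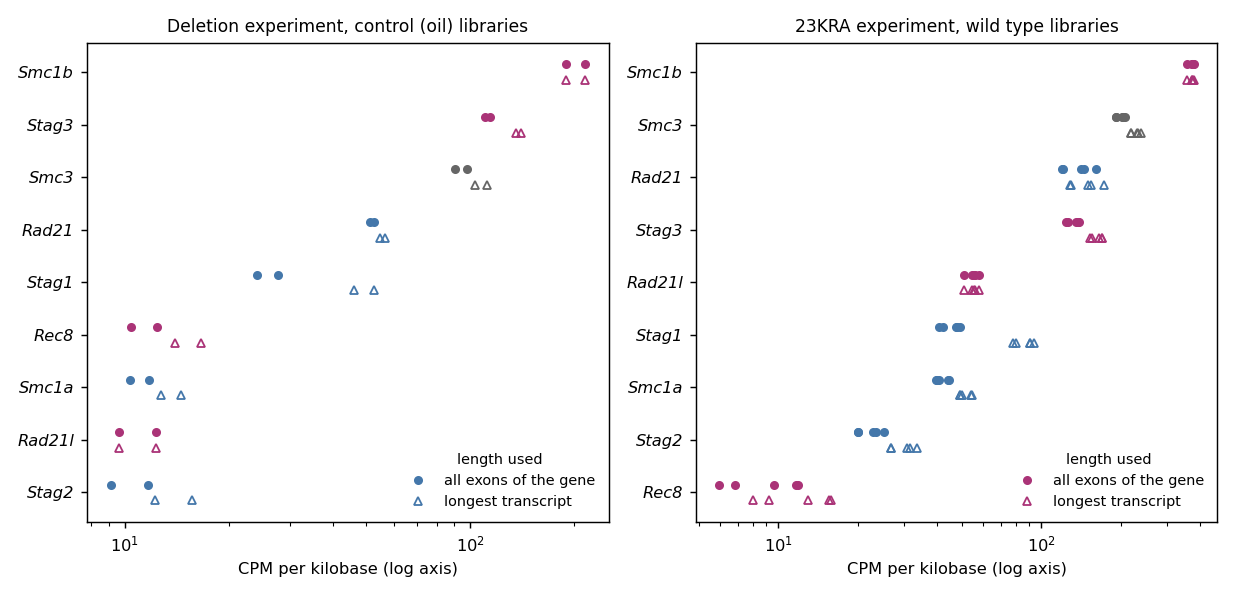
Level of each cohesin subunit transcript per kilobase (CPM per kilobase, log axis) in control libraries of the deletion experiment (left, 2 libraries) and wild-type libraries of the 23KRA experiment (right, 5 libraries), 1 symbol per library, with circles for the length of all exons and triangles for the longest transcript. Meiotic subunits are magenta, mitotic ones blue and Smc3 grey; Smc1b is highest in both, and Rec8 is lowest in wild type at 9.17 CPM per kilobase.

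In the 5 wild-type libraries of the 23KRA experiment Smc1b again led, with 372 ± 7.998 CPM per kilobase (SD, n = 5), above Smc3 at 199.9 ± 7.17. Rad21 at 137.6 ± 17.7 and Stag3 at 132.6 ± 6.70 CPM per kilobase overlapped in range. Rad21l (chromosome 2, 151645404 to 151668533, minus strand) stood at 55.0 ± 2.71, above the overlapping pair Stag1 at 45.4 ± 3.62 and Smc1a (chromosome X, 152016428 to 152062694, plus strand) at 41.8 ± 2.22. Stag2 (chromosome X, 42149317 to 42277185, plus strand) came next with 22.3 ± 2.23, and Rec8 (chromosome 14, 55618037 to 55625395, plus strand) was lowest with 9.17 ± 2.70 CPM per kilobase. The deletion libraries were made with an mRNA kit and the 23KRA libraries with a total RNA kit, so levels of the 2 experiments are set side by side and not tested against each other. Rad21l lay among the 4 lowest genes in the mRNA libraries, and its mean was above those of Stag1, Smc1a, Stag2 and Rec8 in the total RNA libraries.

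Gene length bears on this order. With the length of the longest transcript in place of all exons, Stag1 was at 49.3 CPM per kilobase in controls and at 86.4 in wild type, where it then ranked above Rad21l. Its exons sum to 11781 bases and its longest transcript to 6186. The annotated Rad21l model holds 1659 bases, of which 1656 are coding, so it has no untranslated ends. Whether reads were counted over the same model was not given in the sources used here. In which direction this moves its level per kilobase is therefore not known. Under both lengths Smc1b ranked highest in each experiment.

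Expressed as shares of transcripts per kilobase of all exons, SMC1 was mostly of the meiotic form. The shares are of bulk libraries that also held transcripts typical of early prophase and later germ cells. The summed levels of those markers, given above, differed between the experiments, and the part of such cells in the shares was not tested. Smc1b made up 94.1% and 95.4% of the SMC1 transcripts in the control libraries and 89.0% to 90.5% in wild type. Stag3 made up 73.7% and 77.5% of the STAG transcripts in controls and 63.5% to 69.0% in wild type. With the length of the longest transcript the Smc1b share was 92.9% and 94.4% in controls and 86.8% to 88.5% in wild type. The Stag3 share was then 66.5% and 70.7% in controls and 55.6% to 61.3% in wild type. Among kleisins the mitotic form prevailed: Rec8 and Rad21l together made up 29.4% and 30.6% in controls and 27.2% to 36.1% in wild type. The split between these meiotic kleisins differed by experiment, with Rec8 at 14.1% and 16.5% and Rad21l at 12.9% and 16.6% of kleisin transcripts in controls, against 2.68% to 6.20% and 24.5% to 29.9% in wild type. Set against Smc3, which every ring contains, SMC1 transcripts stood at a ratio of 2.22 and 2.30 in controls and 1.98 to 2.18 in wild type. Kleisin transcripts stood at 0.754 and 0.827 of Smc3 in controls and 0.918 to 1.09 in wild type, and STAG transcripts at 1.52 and 1.63 in controls and 0.904 to 1.07 in wild type.

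After Cbx2 deletion no cohesin subunit passed the test. All 9 had enough counts to be tested, and 0 of 9 were called at an edgeR adjusted p under 0.05, against 0.012% of the 16725 genes tested (0.00598% in each direction). For 0 of 9 were the CPM of the groups apart, against 33.1% of all genes. By unadjusted edgeR p under 0.05 the count was also 0 of 9, against 4.74% of all genes. That unadjusted count was 1 of 9 with upper quartile scaling, without a filter, with a replicate block and by limma-voom. In the same order 820 of 16725, 995 of 21404, 1755 of 16725 and 801 of 16725 genes tested were under the threshold. At the adjusted threshold DESeq2 and limma-voom called 0 of 9. The log2 fold changes lay between -0.31 and 0.13, with 6 above 0 and 3 below and a median of 0.044, beside -0.0044 over all genes. In these bulk samples fewer cells of a type and less RNA per cell cannot be told apart.

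**Figure D2:**
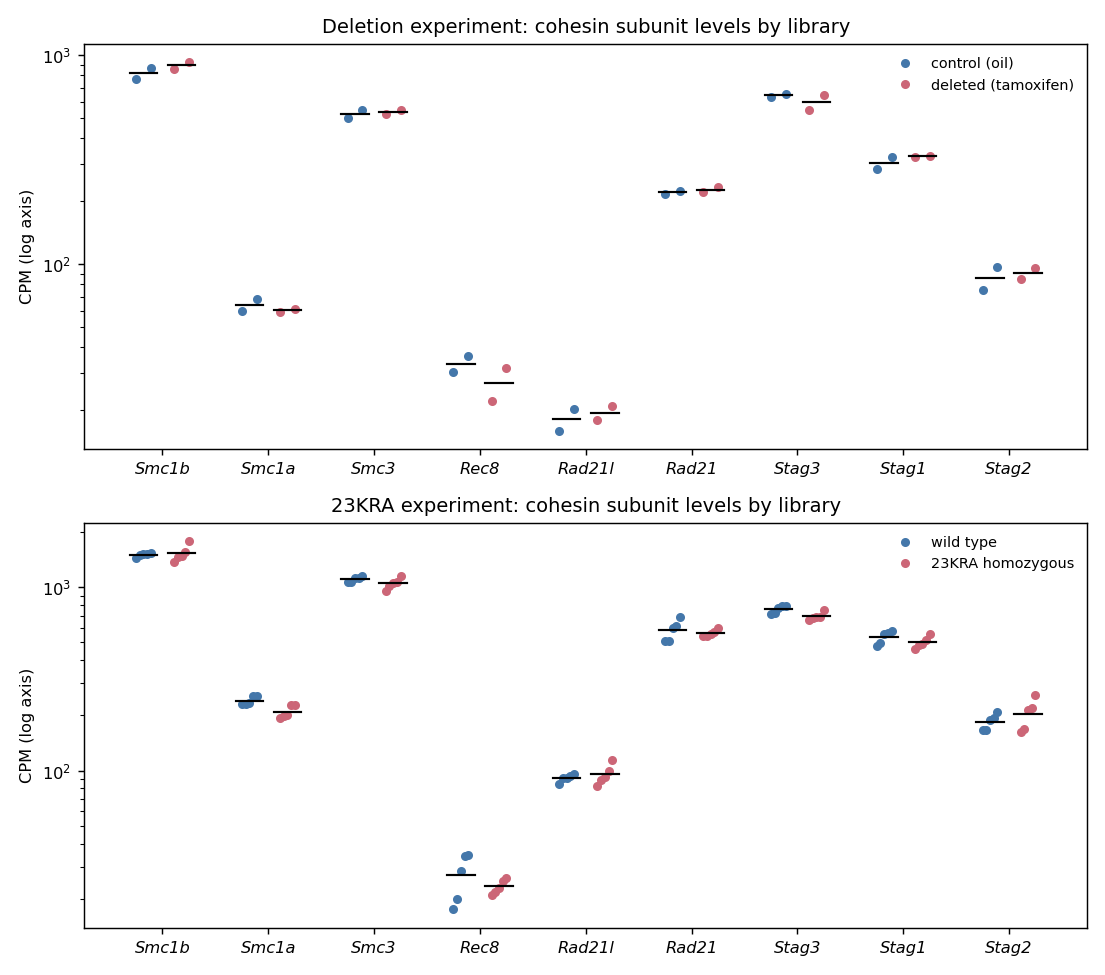
Level of each cohesin subunit transcript (CPM, log axis) in every library of the deletion experiment (top, 2 control and 2 deleted) and the 23KRA experiment (bottom, 5 wild-type and 5 homozygous), with 1 point per library and a bar at the group mean. The groups overlap for every subunit except Smc1a in the 23KRA experiment, where homozygotes reach 227.7 CPM and wild type starts at 230.1 CPM.

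Among the SMC genes, Smc1b was at 870 CPM in control replicate 1 and 766 CPM in control replicate 2, and the deleted libraries had 923 and 863 CPM in the same order. The groups overlapped, and the log2 fold change of 0.13 (SE 0.11) had a 95% interval of -0.092 to 0.35 (edgeR adjusted p = 0.971). Its mitotic partner Smc1a was at 59.7 and 68.0 CPM, against 59.3 and 61.0 CPM after deletion (log2 fold change -0.086, SE 0.12). Smc3, shared by both kinds of ring, was at 544 and 501 CPM against 549 and 523 CPM (0.036, SE 0.10). For both genes 1 deleted library lay inside the control range and the other less than 5 CPM outside it.

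Of the kleisins, Rec8, which keeps sister chromatids joined through the first meiotic division, had the value farthest from 0 in the family. Its controls had 30.5 and 36.3 CPM, deleted replicate 1 had 22.0 CPM and deleted replicate 2 had 31.8 CPM. The deleted library at 31.8 CPM lay within the control range, and the other was below it. The log2 fold change was -0.31 (SE 0.16, 95% interval -0.63 to 0.0090, edgeR unadjusted p = 0.0563, adjusted p = 0.971), and it was -0.068 without deleted replicate 1 and -0.60 without deleted replicate 2. Of the markers, 9 of 9 for spermatids and 8 of 10 for pachytene and later spermatocytes also had values below 0, with medians of -0.20 and -0.15. Over all genes tested 49.0% had values above 0, and edgeR called no marker of either list at the adjusted threshold. Both sums given above were lower in each deleted library than in each control, and 33.1% of single genes also had groups apart. Other lists went the other way: 7 of 9 early meiotic prophase markers were above 0 (median 0.074), as were 7 of 8 for differentiating spermatogonia (median 0.10). The part of any of these cell types in the Rec8 value was not tested. Rad21l, a kleisin of early meiotic prophase, was at 20.4 and 16.0 CPM without and 20.9 and 18.0 CPM with the deletion (log2 fold change 0.10, SE 0.16). Rad21, the mitotic kleisin, was at 217 and 224 CPM against 222 and 233 CPM (0.044, SE 0.11).

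Of the STAG genes, Stag3 had 632 and 654.5 CPM in the controls, 544 CPM in deleted replicate 1 and 646 CPM in deleted replicate 2, a log2 fold change of -0.11 (SE 0.11). Deleted replicate 1, the library with the least Rec8, also had the least Stag3, while deleted replicate 2 lay within the control range. Stag1 was at 326 and 284 CPM against 330 and 325 CPM (0.10, SE 0.11), and Stag2 at 96.5 and 75.2 CPM against 96.0 and 85.3 CPM (0.079, SE 0.13). The 95% intervals were widest for Rec8, at 0.644 to 1.01 times the control level, and Rad21l, at 0.858 to 1.34 times.

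With the 23KRA allele, too, no cohesin subunit passed the test. Of 9 tested, 0 were called at an edgeR adjusted p under 0.05, against 0% of the 14208 genes tested, and DESeq2 and limma-voom also called 0 of 9. Smc1a and Stag3 had an unadjusted edgeR p under 0.05, 2 of 9 members against 3.04% of all genes. That unadjusted count was 1 of 9 without a filter, where 1230 of 19891 genes were under the threshold. It was also 1 of 9 without wild-type replicate 1, 3 or 5, and without homozygous replicate 1, 3, 4 or 5. It stayed at 2 of 9 without replicate 2 of either group or wild-type replicate 4. The log2 fold changes lay between -0.20 and 0.15, with 3 above 0 and 6 below and a median of -0.079, beside 0.0034 over all genes.

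Smc1a, the mitotic SMC1 gene, had the smallest p. From replicate 1 to replicate 5 the wild-type libraries had 253.8, 234.9, 230.9, 230.1 and 256.4 CPM and the homozygous libraries 227.7, 193.5, 227.3, 199.3 and 201.9 CPM. Every homozygous library lay below every wild-type library, the nearest being 2 homozygous libraries less than 3 CPM under the lowest wild type. The means were 241 ± 12.8 and 210.0 ± 16.3 CPM (SD, n = 5 each). The log2 fold change was -0.20 (SE 0.077, 95% interval -0.36 to -0.039, edgeR unadjusted p = 0.0174, adjusted p = 1.00). Smc1a was the only member whose groups did not overlap, 1 of 9, where 0.711% of all genes tested had groups apart. Leaving out any 1 library kept its log2 fold change between -0.24 and -0.17.

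Smc1b was at 1522, 1508, 1515, 1535 and 1452 CPM in wild type and at 1376, 1785, 1486, 1558 and 1461 CPM in homozygotes, replicates 1 to 5. Wild type was tight and homozygotes spread on both sides of it, and the log2 fold change was 0.025 (SE 0.065, 95% interval -0.11 to 0.16). Without homozygous replicate 2, the highest library, it was -0.035. Smc3 was at 1067 to 1156 CPM (median 1121) in wild type and 959 to 1154 CPM (median 1058) in homozygotes (-0.079, SE 0.062).

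Stag3, the meiotic STAG protein gene, was at 792.8, 712.3, 774.9, 726.5 and 794.8 CPM in wild type and at 676.4, 754.6, 659.1, 689.6 and 686.7 CPM in homozygotes. Of the homozygous libraries, 4 of 5 were below all wild-type libraries, and homozygous replicate 2 lay within their range. The log2 fold change was -0.13 (SE 0.064, edgeR unadjusted p = 0.0490, adjusted p = 1.00). Stag1 was at 481 to 577 CPM (median 557) in wild type and 461 to 557 CPM (median 492) in homozygotes (-0.090, SE 0.073). Stag2 was at 166.0 to 208 CPM (median 189.8) and 163 to 257 CPM (median 215), a log2 fold change of 0.15 (SE 0.11), the highest in the family, and of 0.051 without homozygous replicate 2. Smc1a and Stag2 are both X-linked and had values on opposite sides of 0.

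The kleisins overlapped throughout. Rec8 was at 20.0, 34.7, 17.5, 28.2 and 34.1 CPM in wild type and at 25.1, 20.9, 22.9, 26.1 and 21.8 CPM in homozygotes, so that the wild-type libraries spread to both sides of all homozygous ones (log2 fold change -0.20, SE 0.20, 95% interval -0.62 to 0.22). Leaving out wild-type replicate 2 gave -0.093, and leaving out replicate 3 of that group gave -0.32. Here too 9 of 9 spermatid markers and 7 of 10 markers of later spermatocytes had values below 0 (medians -0.31 and -0.13), with sums that overlapped between groups as given above. Above 0 were 7 of 9 early meiotic prophase markers (median 0.047) and 3 of 8 for differentiating spermatogonia (median -0.039). Over all genes tested 50.8% were above 0. The part of any of these cell types in the Rec8 value was not tested. Rad21l was at 84.1 to 96.4 CPM (median 91.7) in wild type and 82.8 to 114 CPM (median 91.9) in homozygotes (0.066, SE 0.10). Rad21 was at 507 to 685 CPM (median 596) and 543 to 601 CPM (median 557), a log2 fold change of -0.047 (SE 0.080), and of 0.018 without wild-type replicate 3. Homozygous replicate 2 had the most Smc1b, Smc3, Rad21l, Stag1, Stag2 and Stag3 of its group, and the least Smc1a and Rec8.

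**Figure D3:**
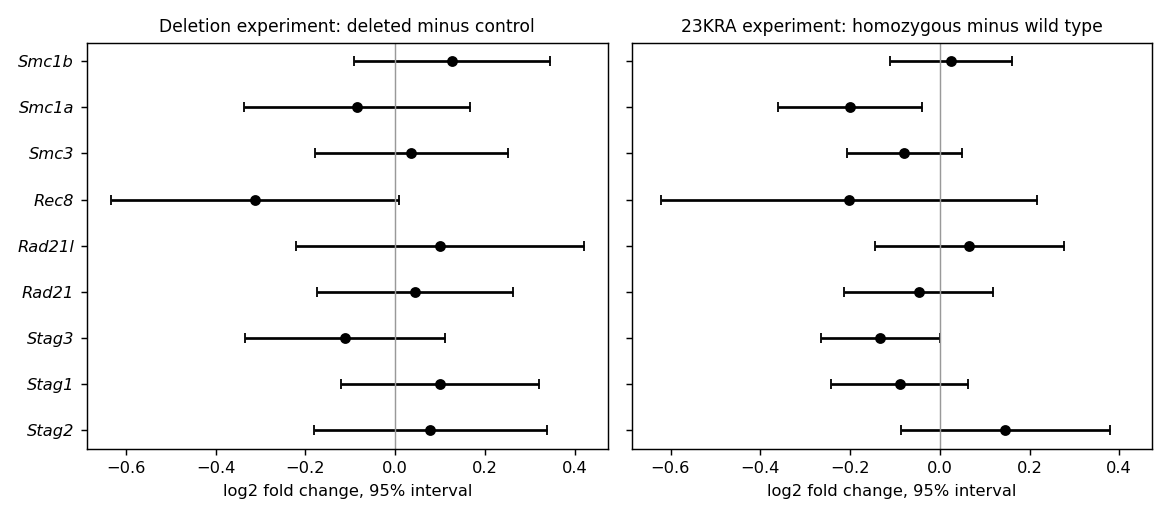
Log2 fold change of each cohesin subunit transcript with its 95% interval from edgeR's quasi-likelihood fit, deleted minus control (left) and homozygous minus wild type (right). All points lie between -0.31 and 0.15, and only Smc1a and Stag3 in the 23KRA experiment have intervals below 0, before any adjustment for the number of genes.

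The balance of meiotic and mitotic paralogs was then read as a ratio of counts per kilobase within each library, in which scaling cancels. There were 4 ratios in each of 2 experiments, 8 tests in all, with log2 ratios compared by exact permutation, two-sided. With 2 against 2 libraries the exact p cannot go below 0.333, and with 5 against 5 not below 0.00794. None passed, and the smallest adjusted p over the 8 exact tests was 0.667.

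Smc1b exceeded Smc1a by 20.8 and 16.1 times in controls and 22.2 and 20.2 times in deleted replicates 1 and 2. The deleted libraries straddled the higher control, and the difference was 0.21 on the log2 scale (exact permutation p = 0.667), moving between 0.025 and 0.40 with 1 library left out (the lowest without control replicate 2, the highest without control replicate 1). In wild type the ratio was 8.55, 9.15, 9.35, 9.51 and 8.07, and in homozygotes 8.61, 13.1, 9.32, 11.1 and 10.3. The means were 8.93 ± 0.602 and 10.51 ± 1.76 (SD, n = 5 each), 1.17-fold higher in homozygotes on the scale of log2 means, with 3 of 5 homozygous libraries above every wild type (exact permutation p = 0.0873, adjusted p = 0.667). Without homozygous replicate 1 the log2 difference was 0.29 in place of 0.22 and the exact permutation p was 0.0238, the one left-out library that took this ratio under 0.05 before adjustment.

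Stag3 exceeded the sum of Stag1 and Stag2 by 2.80 and 3.43 times in controls and 2.40 and 2.97 times in deleted animals, a log2 difference of -0.22 (exact permutation p = 0.667). It was -0.061 without deleted replicate 1 and -0.37 without deleted replicate 2. In wild type the ratio was 2.22, 1.93, 1.88, 1.74 and 2.06 and in homozygotes 2.01, 1.68, 1.71, 1.71 and 1.93. The means were 1.97 ± 0.182 and 1.81 ± 0.149 (SD, n = 5 each; exact permutation p = 0.167, adjusted p = 0.667). The ranges overlapped, with 3 of 5 homozygous libraries below the lowest wild type. In the 23KRA experiment the SMC1 ratio was thus higher and the STAG ratio lower on average in homozygotes, and neither difference passed its test.

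For the kleisins the ratio of Rec8 to Rad21 was 0.203 and 0.234 in controls and 0.143 and 0.197 in deleted replicates 1 and 2. These groups did not overlap, as was so for the CPM of 33.1% of all genes, and the exact permutation p was 0.333, the smallest possible. The log2 difference was -0.37, and leaving out 1 library moved it between -0.60 and -0.15. In wild type the ratio was 0.0368 to 0.0971 and in homozygotes 0.0541 to 0.0693 (exact permutation p = 0.698). The ratio of Rad21l to Rad21 was 0.239 and 0.182 in controls and 0.240 and 0.198 in deleted animals (exact permutation p = 0.667). In wild type it was 0.338 to 0.468 and in homozygotes 0.369 to 0.521 (exact permutation p = 0.468). Homozygotes were tighter than wild type for Rec8 to Rad21, with an SD of 0.00571 against 0.0251.

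**Figure D4:**
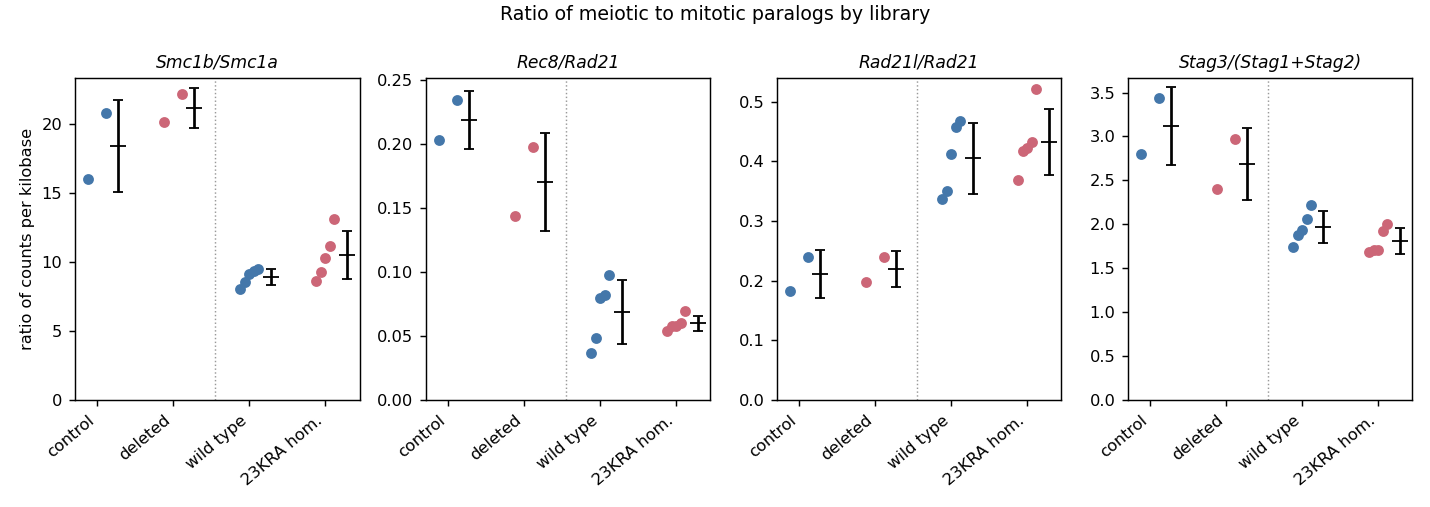
Ratio of counts per kilobase of each meiotic subunit to its mitotic paralog, or to the sum of Stag1 and Stag2, in every library, with the group mean and SD beside the points and a dotted line between the experiments. Smc1b to Smc1a lies at 16.1 to 22.2 in the deletion experiment and 8.07 to 13.1 in the 23KRA experiment, and the Rec8 to Rad21 groups are apart in the deletion experiment only.

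The subunits differed in how much they varied between libraries. Over the 10 libraries of the 23KRA experiment Smc3 had an SD of 0.086 in log2 CPM, and 2.97% of 8426 genes of at least 10 CPM varied less. Smc1b (5.26% of genes varied less) and Stag3 (5.64%) were also among the steady genes, while Stag2 (52.2%) was near the middle and Rec8 (78.3%, SD 0.32) above it. Over the 4 deletion libraries Rad21 was the steadiest member (6.22% of genes varied less) and Rec8 again the least steady (98.8%). Rec8 and Rad21l are also low in counts, with 272 to 1142 reads per library for Rec8 and 502 to 2024 for Rad21l. These spreads include the difference between groups.

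Genes whose level moved most like that of a meiotic subunit were taken as those with the smallest root mean square difference in centred log2 CPM over the 14 libraries, among 8425 genes, as a description. For Smc1b these were Gabpa (0.046), Arcn1 (0.051) and Ivns1abp (0.051), and Smc3 ranked 24th at 0.063. For Stag3 they were Xpo6 (0.045), Eif3c (0.055) and H13 (0.057), with Smc3 the nearest member at rank 363. For Rad21l they were Papola (0.078), Ipo7 (0.084) and Nsmce1 (0.085), and Smc1b followed at rank 15. For Rec8, Pdk2 (0.18), Pard6b (0.18) and Selenot (0.18) came first and its nearest fellow subunit, Smc1a, ranked 599. The measure is not scaled to a gene's own spread, so steady genes lie close to other steady genes. Rec8 had the largest spread of the subunits (SD 0.30 over the deletion libraries and 0.32 over the 23KRA libraries). Its larger distances therefore do not show that fewer genes moved like it.

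No gene among those that load, release, acetylate, protect or cleave cohesin was called. Of 21 regulators tested per experiment, edgeR called 0 in each, with 13 above 0 and 8 below both times. Their median was 0.040 after deletion and 0.018 with the 23KRA allele, beside the medians over all genes given above. Wapl, which opens the ring to release cohesin, was at 458 against 492 CPM after deletion and 649.6 against 638 CPM with the 23KRA allele. The acetyltransferase gene Esco2 was at 456 against 502 CPM and 325 against 336 CPM, and Esco1 at 272 against 312 CPM and 205 against 232 CPM. Nipbl, the loader, was at 144 against 128 CPM and 396 against 397 CPM, and Pds5b at 106 against 103 CPM and 335 against 329 CPM. After deletion 2 of 21 regulators had an unadjusted edgeR p under 0.05, where 4.74% of all genes did. Bub1, a spindle checkpoint kinase whose histone mark recruits the cohesin protector shugoshin, was at 341 and 494 CPM in the controls, listed from the lower, and at 525 and 541 CPM after deletion (log2 fold change 0.35, SE 0.13, edgeR adjusted p = 0.971). Ctcf, whose protein halts cohesin at loop anchors, was at 115 and 118 CPM, against 96.2 and 99.6 CPM after deletion (-0.25, SE 0.11, edgeR adjusted p = 0.971). The groups of both genes were apart, as were those of 7 of the 21 regulators and of 33.1% of all genes.

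With the 23KRA allele 1 of 21 regulators had an unadjusted edgeR p under 0.05, where 3.04% of all genes did. It was Ctcfl, the testis paralog of Ctcf, which was also the 1 of 21 with groups apart, against 0.711% of all genes. It was at 103 to 125 CPM (median 104) in wild type and 70.7 to 97.9 CPM (median 90.6) in homozygotes (log2 fold change -0.31, SE 0.10, edgeR unadjusted p = 0.00749, adjusted p = 1.00). In the deletion experiment Ctcfl was at 17.9 ± 1.47 and 15.6 ± 1.97 CPM (SD, n = 2 each; log2 fold change -0.20, SE 0.15).

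The list of other SMC complexes, which holds condensin, SMC5/6 and Smchd1, had no call among 16 genes tested in each experiment by edgeR (medians 0.059 and -0.019). Smc4, the condensin ATPase gene, was at 677 against 668 CPM after deletion and 898 against 884 CPM with the 23KRA allele. Smc2, its partner, was at 314 against 332 CPM and 479 against 495 CPM. Smc6 was at 539 against 576 CPM and 948 against 926 CPM, and Smc5 at 251 against 273 CPM and 488 against 486 CPM. Ncapg2, of condensin II, was at 278 against 299 CPM and 492.9 against 475 CPM. The smallest p in the deletion belonged to Ncapd3 and Ncapg (log2 fold changes 0.20 and 0.21) and in the 23KRA experiment to Ncapg and Ncaph2 (0.16 and -0.11), and none had an unadjusted edgeR p under 0.05.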

How the data were processed

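The values used were raw counts of reads per gene symbol, which the authors deposited in 2 tables without normalization. Per the submitters' processing notes, STAR 2.5.3, Subread 1.5.0, featureCounts, Trim Galore 0.4.3 and SAMtools 1.4.1 were used with mm10. Annotation and strand setting were not given in the sources used here. Per the labels' protocols, deletion libraries came from a SMART-Seq mRNA kit (20 ng of RNA, 7 and 11 PCR cycles) and 23KRA libraries from a stranded total RNA kit (5 and 16 cycles), although the molecule field gives polyA RNA for all. Each experiment was therefore filtered (filterByExpr), scaled (TMM) and tested alone.

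Tests were two-sided edgeR quasi-likelihood tests (edgeR 4.0.16, R 4.3.3) of counts with Benjamini-Hochberg adjustment over all genes at 0.05. SE is the log2 fold change divided by the square root of F. The test was tried first on simulated counts, with set changes larger than any measured for the subunits. That trial does not show whether changes as small as theirs would be found. Alternatives were DESeq2 1.42.0, limma-voom (limma 3.58.1), other scalings and filters, a replicate block and leaving out each library. Ratios were computed with Python 3.11.15. Lengths and sequences are from GENCODE M21 on GRCm38, the assembly also called mm10. Each library was taken as 1 animal, as the labels count animals, so p-values measure spread between animals and preparations together. Amplified reads are not independent molecules.

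Members and lists were chosen with earlier results of these data known. Named genes are all members, and from the list of regulators and that of other SMC complexes any that passed, the 4 of highest reference mean CPM and the 2 of smallest p in each experiment, with the 3 genes closest in pattern to each meiotic subunit. Marker lists covered differentiating and undifferentiated spermatogonia, early prophase, later spermatocytes, spermatids, Sertoli, Leydig, myoid, endothelial and immune cells, and 1 early prophase gene was not matched.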

Additional observations from a re-analysis of the deposited data

How the results depend on the processing

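The count of 0 cohesin subunits called held in both experiments under every alternative run. Over all genes, the deletion count of 2 was 8 without a filter, 1 with a mean of at least 5 CPM, 1 by DESeq2, 1 by limma-voom and 62 with a replicate block, and from 2 to 73 with 1 library left out (11 without control replicate 1 and 73 without deleted replicate 2). The 23KRA count of 0 was 2 with a replicate block and 0 with any library left out (432 genes had an unadjusted edgeR p under 0.05). Whether the replicate numbers mark shared animals, litters or days was not given in the sources used here, and they were not taken to pair the samples. Same-numbered 23KRA libraries correlated in their deviations from group means at -0.018 to 0.25, 4 of 5 numbers best with their own, and the deletion has only 2 pairs (0.22, both best with their own number). For the ratios the replicate block allows no exact sign-flip permutation p below 0.0625 with 5 pairs or 0.5 with 2. The 23KRA Stag3 ratio, lower in the homozygote of all 5 same-numbered pairs, had that smallest p of 0.0625. Scaling, filter, tool and block turned the sign of no subunit. Leaving out a library did so for uncalled values. In the deletion these were Smc1a (-0.17 to 0.012), Smc3 (-0.022 to 0.11), Rad21l (-0.067 to 0.30), Stag3 (-0.24 to 0.0097) and Stag2 (-0.090 to 0.28), and in 23KRA Rad21 (-0.093 to 0.018), Smc1b (-0.035 to 0.052) and Rad21l (-0.0048 to 0.10). Without a change of sign, deletion values moved from 0.038 to 0.23 for Smc1b, 0.0080 to 0.083 for Rad21 and 0.0058 to 0.21 for Stag1. Left-out ranges of log2 ratio differences that turned sign were -0.14 to 0.26 for Rad21l to Rad21 in the deletion and -0.32 to 0.031 for Rec8 to Rad21 in 23KRA. That of Smc1b to Smc1a in 23KRA was 0.14 to 0.29, with exact permutation p from 0.0238 upward. The longest transcript as length gave Smc1b to Smc1a at 14.99 and 7.26 and Stag3 to Stag1 plus Stag2 at 2.20 and 1.405 in controls and wild type, since the lengths enter the ratio. With that length Rec8 to Rad21 was at 0.274 and 0.0863, against means of 0.218 and 0.0687 with all exons.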
